A study of Mus musculus with 9 samples.

Results

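The genes described here lie along the Prader-Willi region of mouse chromosome 7, on both sides of the Snord116 cluster that Cre recombinase was sent to remove. They were chosen by position and annotation: from the named genes of the region, those with a row in the deposited table were taken, in chromosomal order. These are 9 of the 13588 entries of the table, namely Ube3a, the small nucleolar RNAs (snoRNAs) Gm25156, Gm25646, Gm25449, Gm26337 and Snord64, the Snrpn/Snurf-type transcript Gm38393, and the single-exon genes Ndn and Magel2. No entry of the table has fewer than 50 reads in total over the 9 libraries, so having a row is tied to measured reads. The Snord116 copies themselves have no row in the table, so their removal was not measured here. By quantitative PCR, the study reported a partial fall of Snord116 RNA in mediobasal hypothalamus punches from a separate set of injected mice.

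The study asked what loss of the Snord116 cluster in adult mediobasal hypothalamus does to gene expression there. All 9 mice were C57/BL6 males that carried floxed Snord116 (Snord116tm1Uta/J; homozygous, per the study's methods), were injected at 10 to 12 weeks of age, and were killed 10 weeks after injection. Controls (n = 3) received an AAV7 vector with GFP under the CMV promoter, and the test mice (n = 6) an AAV7 vector with Cre under the CAG promoter, which is not restricted to a cell type. By the study's methods the Cre vector had the higher titre, so promoter and vector dose differ along with Cre between the groups. RNA came from hypothalamic areas cut by laser from single brain sections, and each mouse gave 1 library. In AAV-Cre mice the areas were placed by Cre staining of the adjacent section, and in AAV-GFP mice matching regions were taken. By weight gain, the AAV-Cre mice were split into 2 sets of 3, but their titles and weight labels contradict each other: the mice whose titles carry the word obese have the Non-obese weight label, and the reverse. The subsets are named by the weight label throughout, and the comparison that pools both subsets does not depend on it.

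The region is imprinted. In neurons, most of its genes (the Snrpn/Snurf transcript, the long host transcript Snhg14 that carries the Snord116 and Snord115 snoRNAs in its introns, Ndn and Magel2) are expressed from the paternal chromosome, whereas Ube3a is expressed from the maternal one because Snhg14 runs antisense through the paternal Ube3a copy. Loss of the paternal genes causes Prader-Willi syndrome in people, and the SNORD116 snoRNAs belong to the smallest region tied to it. Box C/D snoRNAs are cut from introns and guide methylation of other RNAs through a stretch next to a short D box, and Snord115 is best known for a stretch complementary to the serotonin receptor transcript Htr2c.

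The snoRNA members are shown first, with the floxed Snord116 type for contrast, because near-identical copies limit which of them reads can be assigned to. Capitals mark the C box (ATGATGA, near the 5′ end) and the last D box (CTGA), and all lie on the minus strand of chromosome 7 (GRCm38; GENCODE M21 transcripts).
Gm25156: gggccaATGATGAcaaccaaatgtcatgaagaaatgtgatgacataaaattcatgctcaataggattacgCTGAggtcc
Gm25646: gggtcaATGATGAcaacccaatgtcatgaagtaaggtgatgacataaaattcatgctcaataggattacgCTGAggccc
Gm25449: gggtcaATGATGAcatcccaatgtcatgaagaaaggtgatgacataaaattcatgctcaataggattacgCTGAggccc
Gm26337: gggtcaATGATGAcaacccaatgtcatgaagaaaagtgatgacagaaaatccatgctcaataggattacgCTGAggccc
Snord64: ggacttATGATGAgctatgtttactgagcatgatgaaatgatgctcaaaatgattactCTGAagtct
Snord116l1: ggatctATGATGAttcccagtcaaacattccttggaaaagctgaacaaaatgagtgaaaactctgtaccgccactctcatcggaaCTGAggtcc

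Gm25156, Gm25646, Gm25449 and Gm26337 are copies of the Snord115 type, 79 bases each, which lie at chr7:59353283-59353361, chr7:59379451-59379529, chr7:59419323-59419401 and chr7:59423055-59423133 within introns of Snhg14. They differ from one another at 2 to 6 positions. Counted from 1 at the 5′ end of Gm25156, the other 3 share C4T, A19C and T77C. Position 35 differs too, as T35G in Gm25646 and Gm25449 and as T35A in Gm26337. T45G and T51C occur in Gm26337, A32T in Gm25646 and A16T in Gm25449. No difference falls in positions 53 to 70. That stretch, atgctcaataggattacg, is the longest run in each of the 4 copies that is perfectly complementary to an annotated Htr2c transcript. It is 18 bases long, was found in 2 of the 7 Htr2c transcripts, and is carried by 105 of the 134 Snord115-type copies of the region. The longest such run was 11 bases in Snord64 and 11 bases in Snord116l1.

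Of the snoRNA genes annotated from the Ube3a end of Snhg14 to just past the start of Gm38393, 134 were of the Snord115 type and 70 of the Snord116 type (at least 75% identical to Gm25156 or to Snord116l1). The table holds 4 of the former and 0 of the latter. Reads were 50 bases long, and a 79-base copy holds 30 windows of that length. In Gm25156, Gm25646 and Gm26337 all 30 windows, and in Gm25449 16 of them, occurred in no other snoRNA of the region. Of the 130 Snord115-type copies without a row, 99 had no such window and 97 shared their whole sequence with another copy. The other copies without a row had between 1 and 30 unique windows, so having one did not by itself place a copy in the table. Of the Snord116-type copies, 52 of 70 had no unique window. How multiply mapped reads were treated is not given in the sources used here. No entry of the table has fewer than 50 reads in total. Whether the missing copies had too few reads, or reads that could not be placed, was not tested.

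**Figure D1:**
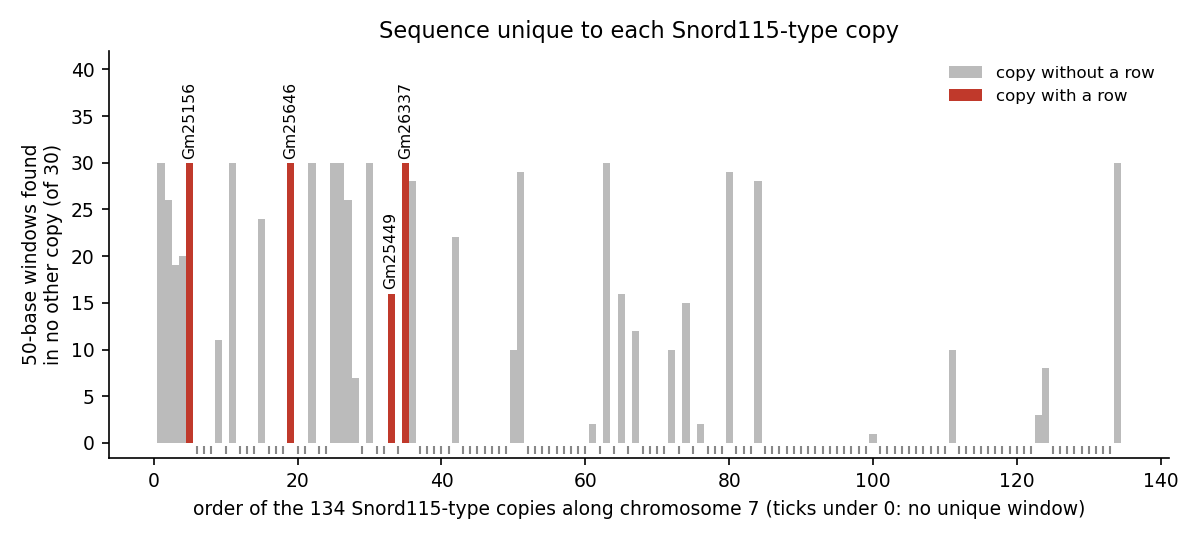
Number of 50-base windows found in no other snoRNA of the region (y axis, of 30) for each of the 134 Snord115-type copies in chromosomal order (x axis). Red bars are the 4 copies with a row in the table, grey bars copies without one, and ticks under 0 mark the 99 copies with no unique window; the copies with a row have 16 to 30 unique windows.

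Values are given as signal, the authors' read count of a gene relative to TMM-scaled depth (edgeR), in counts per 1e6 reads, and each could be turned back into whole reads. Libraries held 3929672 to 5766994 reads on the listed genes, so that 3 reads, the smallest number taken as different from 0, correspond to a signal of 0.525 to 0.786 (counting error only). The vectors matched the labels: Gfp had 317 to 350 reads in AAV-GFP libraries and 0 in the AAV-Cre libraries, which allows up to 3 reads, and Cre had 0 to 5 reads in AAV-GFP libraries. Cre signal varied widely among the AAV-Cre mice, at 1330, 8557 and 235 in the subset labelled obese and at 4644, 5136 and 7064 in the subset labelled nonobese. The 2 libraries with least Cre, replicates 1 and 3 labelled obese, also stood apart in markers of other cell types. The summed signal of 6 leukocyte and plasma cell genes was 2723 and 4910 there, 69.0 in the remaining replicate, 29.8 to 39.3 in the subset labelled nonobese and 4.49 to 6.32 in AAV-GFP, where Igkc was at 0 in 1 library. Microglial genes (6 of 6 with a row) summed to 418 and 337 in those 2 libraries against 82.8 to 138 in the others. Neuronal genes (10 of 10 with a row) summed to 4266 and 3970 there against 5033 to 6357 elsewhere, which fits brain tissue in every library. This list does not mark a brain area. By summed signal, all 3 libraries labelled obese stood apart in other lists. Oligodendrocyte genes summed to 835 to 1080 in them against 1160 to 2556 in the other 6 libraries, oligodendrocyte precursor genes to 83.0 to 125 against 133 to 204, and endothelial genes to 145 to 190 against 87.8 to 129. By mean log2(signal + 1), the oligodendrocyte and endothelial lists overlapped with other libraries. Astrocyte genes overlapped by summed signal but stood apart by that mean, at 7.51 to 8.34 in the subset labelled obese. It was 6.77 to 7.35 in AAV-GFP and 6.70 to 7.28 in the subset labelled nonobese. Against AAV-GFP, 2 of 6 astrocyte genes and 2 of 4 tested leukocyte and plasma cell genes were called higher in the subset labelled obese (limma). In the same comparison 1 of 10 neuronal genes was called lower, and 0.555% of all entries tested were called. The part of these cell types in the comparisons of the subset labelled obese was not tested. In RNA of whole areas, fewer cells of a type and less RNA per cell cannot be told apart.

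Gm25156 was by far the most abundant Snord115-type member. Its signal was 112, 81.8 and 34.6 in AAV-GFP, 102, 72.6 and 65.5 in the mice labelled obese, and 121, 106 and 110 in those labelled nonobese. The libraries labelled nonobese lay close together and above every library labelled obese, while AAV-GFP ran from below every other library into the range of those labelled nonobese. The log2 fold change (log2 FC, on log2(signal + 1)) was 0.20 ± 0.31 (SE; 95% interval -0.43 to 0.83) in the subset labelled obese against AAV-GFP. In the subset labelled nonobese against AAV-GFP it was 0.70 ± 0.31, with an interval of 0.07 to 1.34 and an unadjusted p of 0.0305, but an FDR of 0.999 over the 13506 entries tested with limma. Between the subsets it was 0.51 ± 0.31 (labelled nonobese minus labelled obese; limma FDR = 0.547). An exact two-sided permutation test gave p = 0.1, the lowest p that 3 against 3 libraries allow.

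The 3 other copies were low. Gm25646 had a signal of 13.2, 4.79 and 3.69 in AAV-GFP, 2.48, 4.99 and 3.72 in the subset labelled obese and 9.10, 3.14 and 7.68 in the subset labelled nonobese. Gm25449 had 13.0, 8.81 and 3.88, then 10.1, 7.72 and 4.41, then 12.4, 4.71 and 9.60 in the same order of groups. Gm26337 had 15.5, 6.13 and 4.08, then 9.68, 7.26 and 4.41, then 3.50, 4.19 and 9.82. In each of these copies the 3 groups overlapped, and AAV-GFP replicate 1 was the highest of the 9 libraries. With 11 to 71 reads a library, their 95% intervals were wide: for the subset labelled obese against AAV-GFP the log2 FC was -0.66 (-2.19 to 0.88) for Gm25646, -0.12 (-1.49 to 1.26) for Gm25449 and -0.11 (-1.57 to 1.35) for Gm26337, so that a 2-fold fall lay within each interval.

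Read together, the 4 copies had 238 to 833 reads a library, of which Gm25156 took between 72.9% (95% exact binomial interval 69.1 to 76.3, AAV-GFP replicate 1) and 89.8% (86.6 to 92.4, labelled nonobese replicate 2). As given above, Gm25156, Gm25646 and Gm26337 have 30 unique windows each and Gm25449 has 16. Gm25156 differs at 4 positions from its nearest copy of the same length, against 1 for Gm25646, 1 for Gm25449 and 2 for Gm26337. Whether reads of near-identical copies were lost or exchanged was not tested, and the levels of single copies are uncertain for that reason.

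Snord64, a box C/D snoRNA upstream of the Snord116 cluster, lies at chr7:59978808-59978874, inside an exon of a Gm38393 transcript on the same strand (67 of its 67 bases). It was the most variable member. Its signal was 3.49, 7.47 and 2.72 in AAV-GFP, 4.05, 10.7 and 2.09 in the subset labelled obese and 8.75, 0.524 and 6.62 in the subset labelled nonobese, the value of 0.524 being 2 reads and under the floor. The groups overlapped throughout. The log2 FC was 0.12 (-1.63 to 1.88) and -0.11 (-1.86 to 1.65) for the subsets labelled obese and nonobese against AAV-GFP, and reads of Snord64 and of the exon around it cannot be told apart.

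Gm38393 (ENSMUSG00000000948; chr7:59974149-60005064, minus strand) carries the Snrpn/Snurf region in these data. Snurf and Snrpn, the latter encoding the neuronal Sm protein SmN of the spliceosome, are annotated as separate genes within it and have no row, and 589 of its 5216 exon bases are shared with Snrpn and 216 with Snurf. Its signal was 295, 357 and 320 in AAV-GFP, 289, 380 and 273 in the subset labelled obese and 342, 384 and 351 in the subset labelled nonobese. The lowest libraries were labelled obese replicates 3 and 1, the mice with least Cre and with the high leukocyte genes, yet the third mouse of that subset was among the highest. The log2 FC was -0.06 ± 0.16 in the subset labelled obese and 0.15 ± 0.16 in the subset labelled nonobese against AAV-GFP, with intervals of -0.39 to 0.28 and -0.19 to 0.49. Without those 2 mice, an alternative chosen after the data were seen, the first value was 0.23, and with the level of neuronal genes in the fit it was 0.12. The part of cell type composition in this result was not tested further.

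Ndn and Magel2, both of the MAGE family, lie on the same side of the cluster as Gm38393 and Snord64, 2.46 and 2.50 Mb away, at chr7:62346569-62350262 and chr7:62377010-62381640 on the plus strand. Ndn encodes necdin, a neuronal protein that holds back growth and cell death, and Magel2 a partner of ubiquitin ligases in the recycling of proteins from endosomes. Ndn was the steadiest member. Its signal was 613, 654 and 540 in AAV-GFP, 682, 710 and 566 in the subset labelled obese and 624, 646 and 627 in the subset labelled nonobese. The groups overlapped, and the 3 libraries labelled nonobese differed by 1.88% (coefficient of variation). The log2 FC against AAV-GFP was 0.11 ± 0.14 (-0.18 to 0.41) and 0.07 ± 0.14 (-0.22 to 0.37), so that the data are compatible with folds between 0.859 and 1.33 in either subset.

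Magel2 was less abundant and uneven among the controls. Its signal was 97.2, 81.6 and 20.2 in AAV-GFP, 45.2, 72.9 and 55.8 in the subset labelled obese and 37.4, 59.3 and 59.4 in the subset labelled nonobese. AAV-GFP replicate 3 was the lowest of all libraries, and the other AAV-GFP libraries were the highest. The log2 FC was 0.06 ± 0.40 (-0.77 to 0.88) and -0.10 ± 0.40 (-0.93 to 0.73) for the subsets labelled obese and nonobese, and -0.02 ± 0.36 for all AAV-Cre mice. Without AAV-GFP replicate 3 these became -0.64, -0.79 and -0.72, with limma FDRs of at least 0.700 and unadjusted p-values of 0.0582, 0.0208 and 0.0217. The same library was the lowest for Gm25156, whose log2 FC without it was -0.28, 0.22 and -0.03 for the same comparisons. It was not shallow, at 4954160 reads, and its neuronal genes summed to 5033, next to 5127 and 5491 in the other AAV-GFP libraries. Its ependymal and tanycyte genes (2 of 5 with a row) summed to 5.83 against 27.7 and 31.6 there, and its oligodendrocyte genes to 1782 against 1179 and 1270. The part of these cell types in its values was not tested. A single control library therefore moved both values, and for Gm25156 the sign, in the comparison that pools the AAV-Cre mice.

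Ube3a (chr7:59228750-59311536, plus strand), a ubiquitin ligase, is the member that neurons express from the maternal chromosome. The annotation places Snhg14 exons on the opposite strand over 1803 of its 20626 exon bases. Its signal was 253, 215 and 254 in AAV-GFP, 235, 184 and 204 in the subset labelled obese and 221, 216 and 247 in the subset labelled nonobese. The groups overlapped, with the lowest value in labelled obese replicate 2, the mouse with most Cre. The log2 FC was -0.21 ± 0.17 (-0.57 to 0.14) in the subset labelled obese, -0.08 ± 0.17 (-0.43 to 0.28) in the subset labelled nonobese and -0.14 ± 0.15 (-0.46 to 0.17) when both subsets were pooled. The libraries were made with a stranded kit, but the strand setting of the counting is not given in the sources used here, so reads of Ube3a and of its antisense partner cannot be told apart where they overlap.

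**Figure D2:**
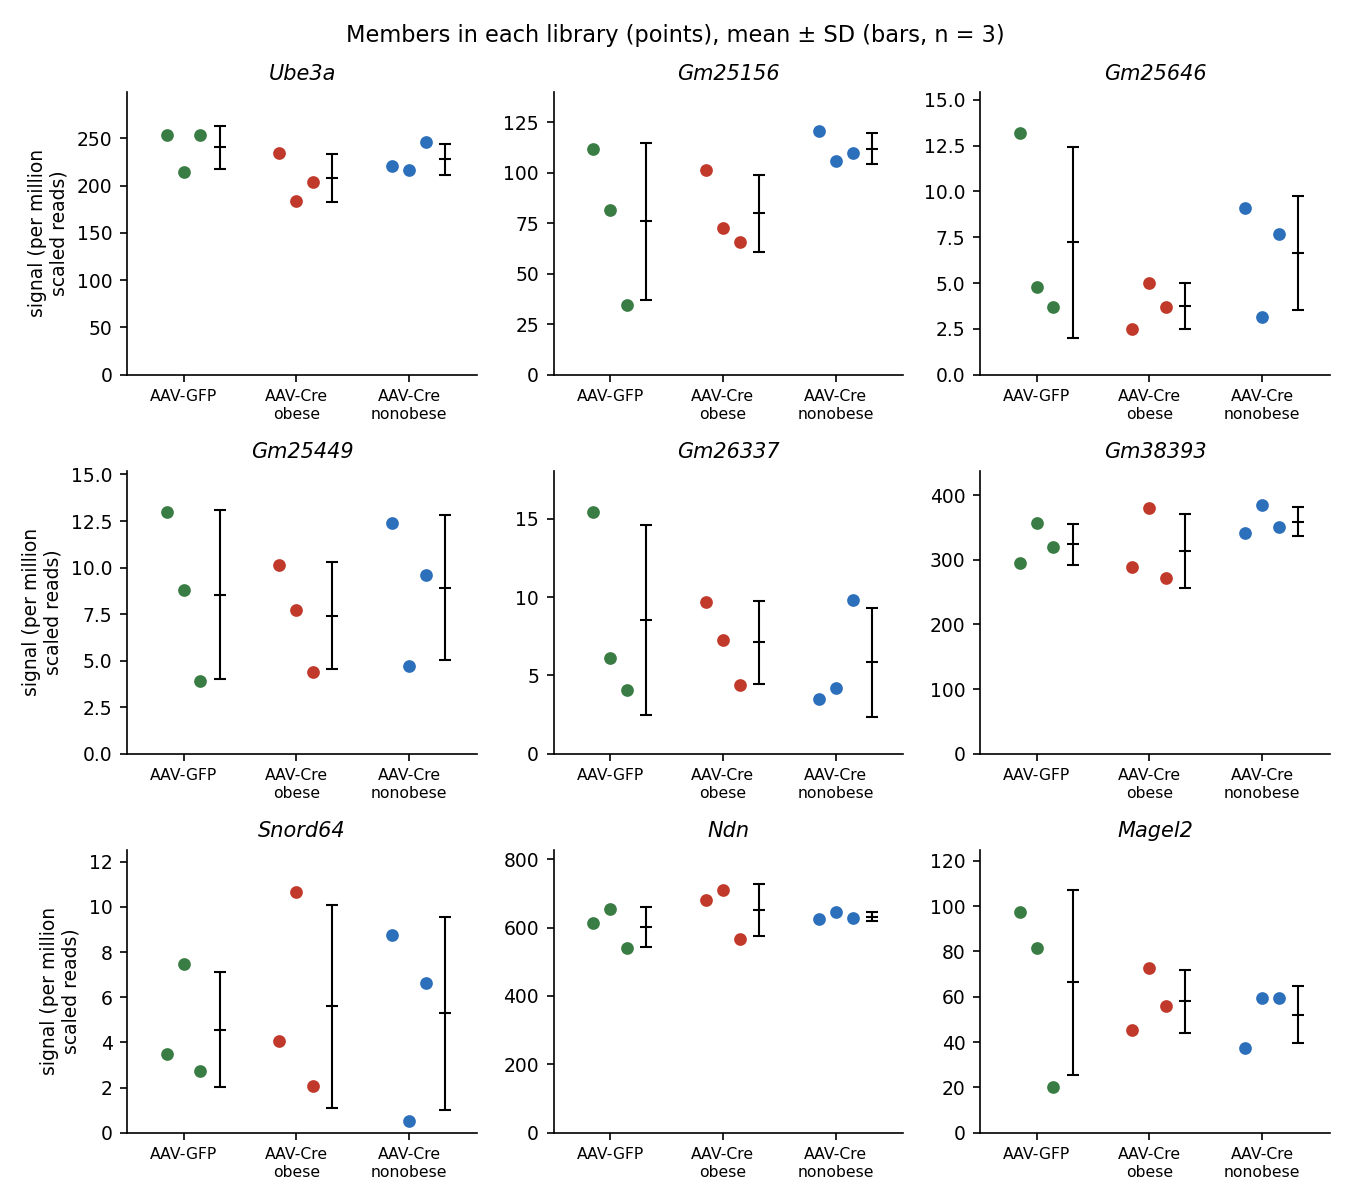
Signal (y axis, linear, from 0, a scale for each gene) of the 9 members in each library (points, replicates 1 to 3 from left to right) with mean ± SD (bars, n = 3) for AAV-GFP (green) and the AAV-Cre subsets labelled obese (red) and nonobese (blue). The groups overlap for every member against AAV-GFP; for Gm25156 the libraries labelled nonobese (106 to 121) lie above those labelled obese (65.5 to 102), and AAV-GFP replicate 3 is low for Magel2 and Gm25156.

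No member passed the FDR of 0.1 in any of the 4 comparisons. In the subset labelled obese against AAV-GFP, 0 of 9 were called against 0.555% of all entries tested, 0 had an unadjusted p under 0.05 (9.88% of all entries), and in 0 did the groups not overlap (14.5%). In the subset labelled nonobese against AAV-GFP, 0 of 9 were called (0.0148% of all entries), 1 had an unadjusted p under 0.05 (Gm25156; 2.27%), and in 0 did the groups not overlap (9.72%). Between the subsets, 0 of 9 were called (0.948%), 0 had an unadjusted p under 0.05 (11.4%), and in 1 (Gm25156) the groups did not overlap (13.3%). For all AAV-Cre mice against AAV-GFP, 0 of 9 were called (0.0222%), 0 had an unadjusted p under 0.05 (3.14%), and in 0 did the groups not overlap (2.01%). The shares of all entries called depended on single libraries: leaving out 1 library moved the share from 0.0594% (without AAV-GFP replicate 1) to 5.27% (without labelled obese replicate 2) in the subset labelled obese against AAV-GFP, and from 0.0149% (without labelled obese replicate 1) to 6.72% (without labelled obese replicate 2) between the subsets. With shares of all entries this low, an absence of calls among 9 members says little by itself, and the intervals carry the information. DESeq2 and edgeR's quasi-likelihood and likelihood ratio tests on the recovered reads also called 0 members in each comparison.

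As a description, the median absolute log2 FC of the 9 was 0.12, 0.10 and 0.21 in the subset labelled obese against AAV-GFP, the subset labelled nonobese against AAV-GFP and between the subsets, and the same median over all tested entries, which differ from the members in level, was 0.36, 0.27 and 0.37. Single members lay higher, with Gm25156 in the subset labelled nonobese against AAV-GFP above 84.7% of all entries and Gm25646 in the subset labelled obese against AAV-GFP above 74.0%. Members lay on both sides of 0, with 4, 4 and 5 of 9 higher. These comparisons share libraries and are not independent of each other.

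**Figure D3:**
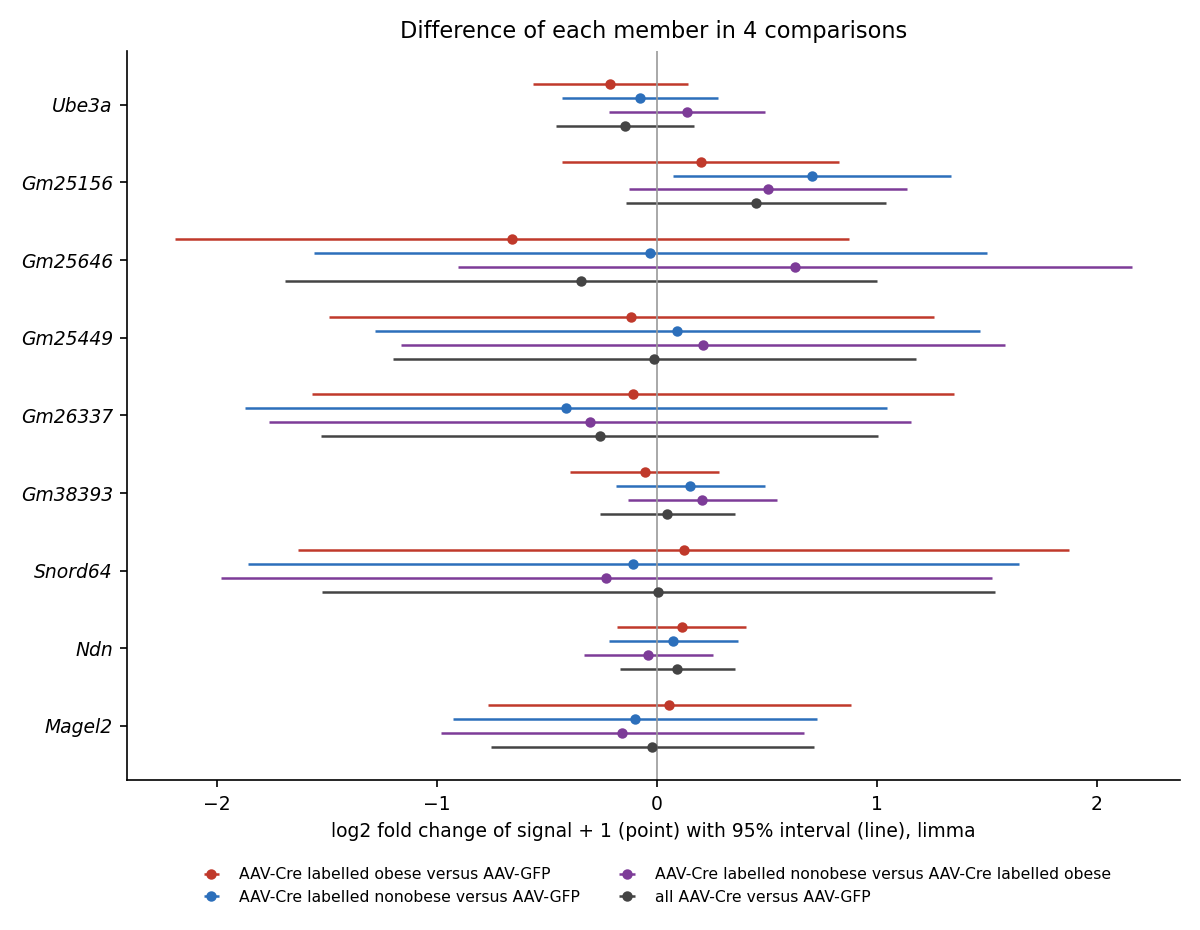
Log2 fold change (point) with its 95% interval (line) from limma for each member (rows) in the 4 comparisons (colours). Only 1 interval leaves out 0, that of Gm25156 in the subset labelled nonobese against AAV-GFP (0.07 to 1.34); the intervals of Ube3a, Gm38393 and Ndn are narrow and those of the low snoRNAs wide.

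The 3 most abundant members were also the steadiest. The SD of log2(signal + 1) within groups was 0.13 for Ndn, 0.14 for Ube3a and 0.17 for Gm38393, near or under the median of entries of like level (0.17, 0.22 and 0.17). Magel2 and Gm25156 varied more than entries of like level, with SDs of 0.76 against 0.35 and 0.53 against 0.30, and the SD expected from counting alone was 0.09 and 0.07. Most of this spread lay in AAV-GFP. For Magel2 the SD was 1.21 there, against 0.34 and 0.38 in the subsets labelled obese and nonobese. For Gm25156 it was 0.86, against 0.33 and 0.10 in the same order. The 4 lowest members, with 2 to 71 reads a library, had SDs of 0.65 to 1.07, of which counting alone gives 0.22 to 0.27.

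Per kilobase of exon, the mean signal in AAV-GFP was highest for Gm25156 (962 ± 492 SD, n = 3), followed by Ndn (163 ± 15.7), Gm26337 and Gm25449 (108 each, ± 76.8 and ± 57.5), Gm25646 (91.5 ± 66.0), Snord64 (68.1 ± 38.0), Gm38393 (62.1 ± 5.99), Magel2 (14.3 ± 8.79) and Ube3a (11.7 ± 1.09). The step from Gm25156 to Ndn and that from Gm38393 to Magel2 were larger than the SD of either gene, whereas Ndn, the 3 low copies, Snord64 and Gm38393 each lay within an SD of the next, as did Magel2 and Ube3a. On this scale, averaged over all 9 libraries, Ndn exceeded 99.02% and Gm25156 99.8% of the 13446 entries matched to the annotation. Reads were 50 bases long and the snoRNAs 67 to 79, and the exon bases of Ube3a are summed over all its annotated transcripts; how far either moves a level per kilobase was not tested.

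Members could also be compared across libraries, as a description only. The Snord115-type copies varied together after group means were removed, with Pearson r of 0.52 to 0.83 over 9 libraries in their 6 pairs, and 8 of the 30 other pairs of members reached an r of 0.52 or more. The highest of these were Gm25156 with Magel2 (0.76), Gm25449 with Snord64 (0.66), Gm38393 with Ndn (0.64) and Gm25156 with Ndn (0.62). AAV-GFP replicate 3 was the lowest library for both Gm25156 (34.6) and Magel2 (20.2). In each AAV-Cre subset, by contrast, replicate 1 had the highest Gm25156 and the lowest Magel2. How far AAV-GFP replicate 3 sets r in this and the other pairs was not tested. Gm38393, from whose promoter the snoRNA host transcript is thought to start, did not vary with the 4 copies (r of -0.20 to -0.10). With group means removed likewise, it varied inversely with Ube3a (r = -0.71), against r = -0.35 with group means kept. These points share library depth and tissue composition. Among 9764 other entries with a mean signal of at least 10, those most like each member over the 9 libraries were Stx3, Hjurp and Trpc4 for Ube3a (r = 0.93 to 0.91), Fam189a1, mt-Th and Rpl37a for Gm25156 (0.95 to 0.93), Ncam2, Sra1 and Nexmif for Gm38393 (0.94 to 0.93), Minar2, Ttll11 and Npm1 for Ndn (0.94 to 0.92), and Egln1, Hap1 and Ckap5 for Magel2 (0.92 to 0.88). These last r values keep the group means, and no member was among the 3 entries most like another.

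Because Cre differed so widely between mice, each member was set against Cre, both on log2(signal + 1), over the 6 AAV-Cre libraries (9 relations, exact permutation of pairings, two-sided, Benjamini-Hochberg over the 9). The strongest was that of Gm38393, which was higher where Cre was higher: Pearson r = 0.92 (exact p = 0.0083, adjusted p = 0.075) and Spearman rho = 0.83 (exact p = 0.0583, adjusted p = 0.525). Without the 2 libraries farthest from the median Cre on that log2 scale, labelled obese replicates 1 and 3, r was 0.35 over 4 libraries. The relation therefore rests on those 2 mice, which are also the ones with high leukocyte genes and the lowest neuronal genes. Without the 2 farthest on the linear scale, labelled obese replicates 2 and 3 (chosen after the data were seen), 1 of those mice stayed in and r was 0.87. For the other members r lay between 0.04 (Ube3a) and 0.64 (Ndn), with adjusted p of 0.671 to 0.933 in the exact permutation tests.

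**Figure D4:**
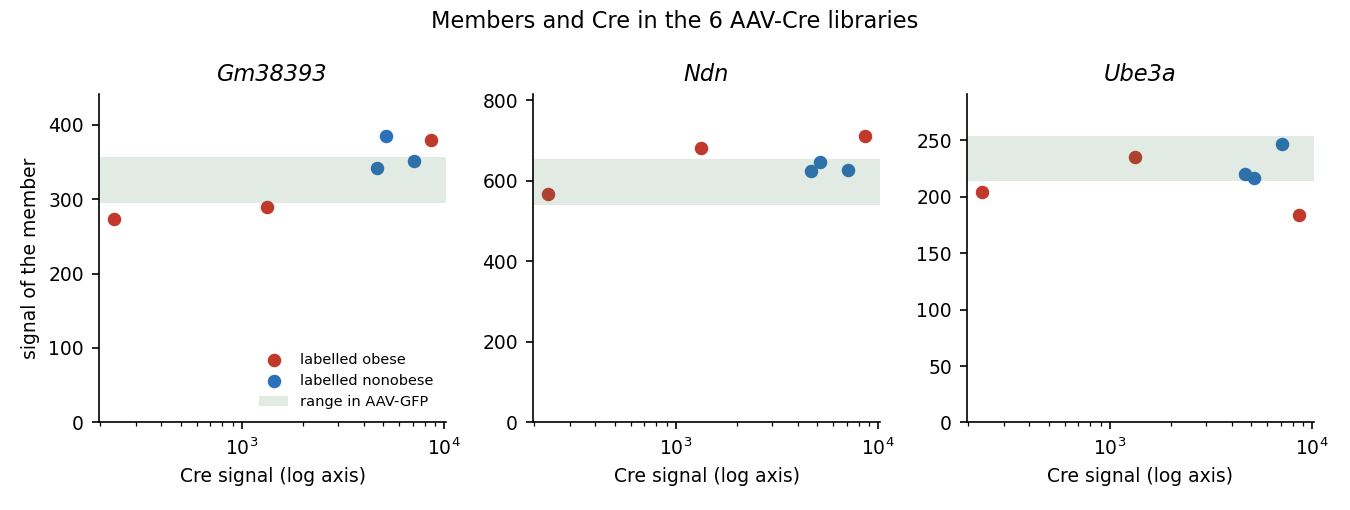
Signal of Gm38393, Ndn and Ube3a (y axes, linear, from 0) against Cre signal (x axis, log scale) in the 6 AAV-Cre libraries, labelled obese in red and nonobese in blue, with the range in AAV-GFP as a green band. The 2 libraries with least Cre (235 and 1330) have the lowest Gm38393 (273 and 289); no such order is seen for Ube3a.

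Around the members, the 20 nearest tested entries on each side, from 10.1 Mb to the left to 6.78 Mb to the right of the named Snord116 copies, were examined in the same fit. Of these 40, 0 were called against AAV-GFP in the subset labelled obese, the subset labelled nonobese or all AAV-Cre mice (3, 0 and 1 with an unadjusted p under 0.05), and 1 was called between the subsets. That was Slc17a6, the vesicular glutamate transporter VGLUT2 of excitatory hypothalamic neurons, 8.24 Mb away: its log2 FC was 1.06 ± 0.24 between the subsets (labelled nonobese higher; FDR = 0.0328, limma) and -0.92 ± 0.24 in the subset labelled obese against AAV-GFP (FDR = 0.105). The first call was lost in 7 of 24 alternatives. It was lost without labelled obese replicate 1 (0.88, FDR = 0.253) or replicate 3 (0.96, FDR = 0.186), without both (0.49, FDR = 0.506), and without labelled nonobese replicate 2 (0.83, FDR = 0.230). It was also lost with neuronal genes in the fit (0.54, FDR = 0.495), with only the 2 groups in the fit (FDR = 0.117) and with no variance trend (FDR = 0.345). The second value ranged from -1.21 to -0.35 over the 24 alternatives and passed the FDR of 0.1 in 6 of them, among them without labelled obese replicate 2 and with DESeq2. The next lowest p was that of Gabra5, a GABA receptor subunit 2.42 Mb from the cluster, with -1.22 ± 0.45 in the subset labelled obese (FDR = 0.323).

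**Figure D5:**
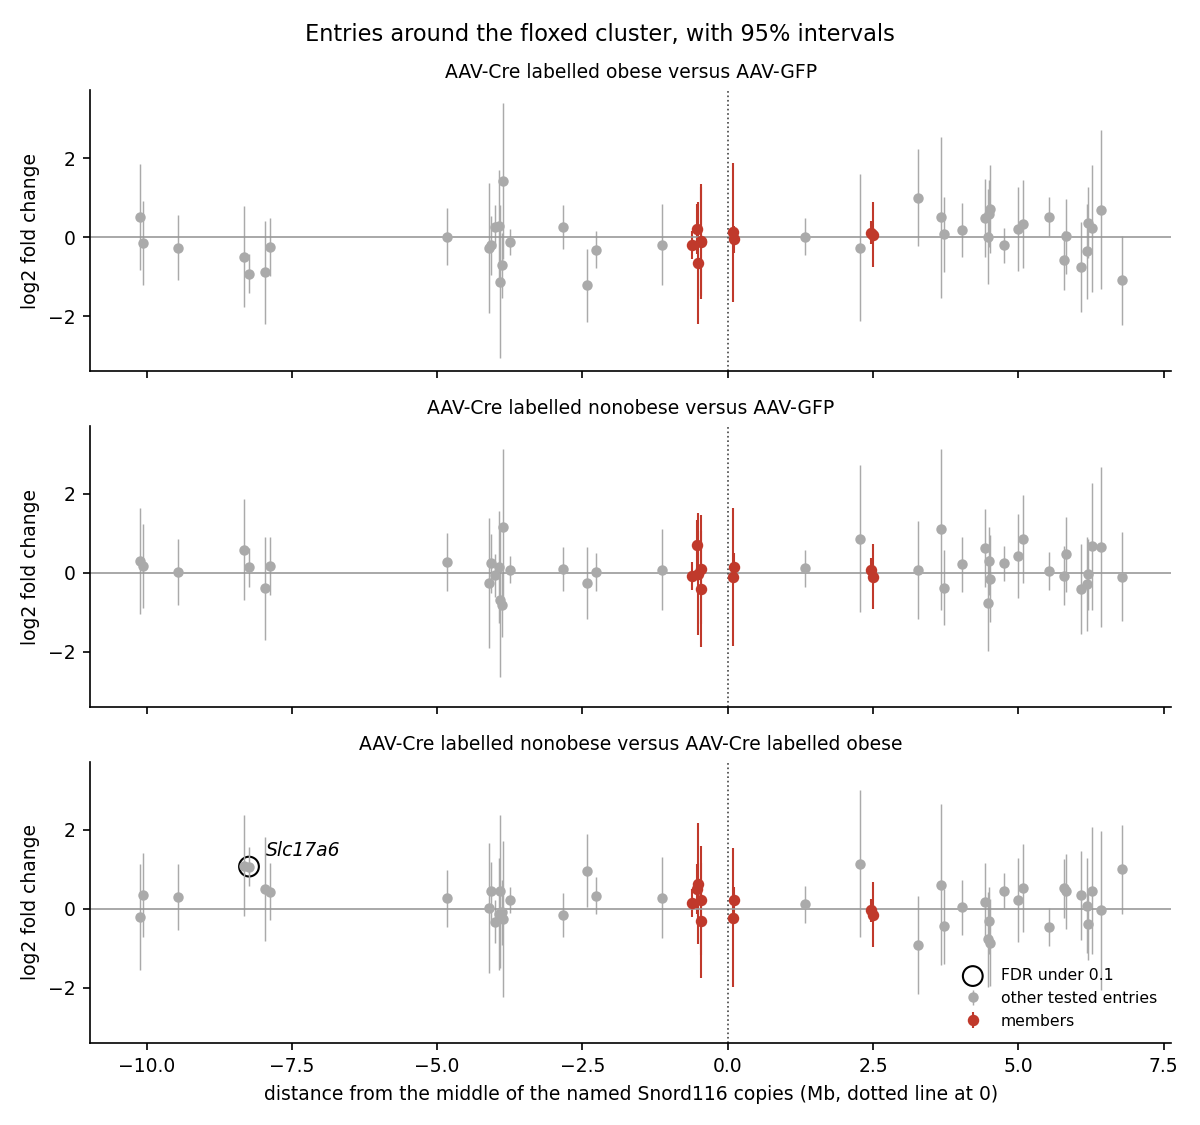
Log2 fold change with 95% interval (y axis) of the members (red) and of the other tested entries around them (grey) against distance from the middle of the named Snord116 copies (x axis, Mb), for 3 comparisons. The members lie around 0 in each panel; the circle marks the entry with an FDR under 0.1, Slc17a6 at -8.24 Mb.

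The wider pathways of the members were followed through gene lists. Of the 9 measured genes of the region that are expressed from both parents or have disputed imprinting, 0 rose and 0 fell at an FDR of 0.1 in each of the 4 comparisons, with a median log2 FC of -0.20 in the subset labelled obese against AAV-GFP (-0.04 over all entries). Gabra5, named above, and Nipa1, a magnesium transporter (-0.77 ± 0.34 in all AAV-Cre mice, FDR = 0.999), had the lowest p. Of 17 genes for other MAGE proteins and for the ubiquitin ligase, retromer and WASH partners of Magel2, 0 rose and 0 fell. The retromer subunit Vps29 had the lowest p (0.61 ± 0.29 in the subset labelled obese, FDR = 0.492).

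Likewise, 0 of 12 genes for the Sm core and the U1 and U2 particles, in which the Snrpn product SmN works, were called in any comparison. Snrpb2 (0.93 ± 0.39, subset labelled obese against AAV-GFP, FDR = 0.417) and Snrpe (-1.38 ± 0.57, between the subsets, FDR = 0.337) had the lowest p. Of 11 genes for proteins that build snoRNA particles, 0 were called. Ruvbl2, an assembly ATPase, stood at -1.41 ± 0.57 in the subset labelled nonobese (FDR = 0.999), and Nop58, a core protein of box C/D particles, at 0.75 ± 0.31 between the subsets (FDR = 0.346). Of 5 partners of Ube3a, 0 were called, and the lowest FDR in any comparison was 0.651. Medians of these lists were within 0.26 of those of all entries in every comparison. The lists' FDRs are limma's, over all 13506 entries.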

How the data were processed

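The authors mapped 50-base single-end reads to GRCm38 with TopHat2 2.0.11 and counted them with HTSeq, per the submitters' processing notes, and deposited the table as signal: reads per gene over a TMM-scaled library size, times 1e6. In every library 100% of values were whole multiples of 1 read (within 0.01 reads), so reads were recovered for count tests. Differences in log2(signal + 1) were fitted by limma 3.58.1 under R 4.3.3 (all 3 groups in a fit, variance trend, Benjamini-Hochberg) over the 13506 entries that reached a signal of 1 in 3 or more libraries, and all AAV-Cre mice against AAV-GFP in a fit of 2 groups. The design had been written for CPM values, and the same test suited the deposited signal. Alternatives used edgeR 4.0.16 and DESeq2 1.42.0, other pseudocounts (0.1 and 5), filters and scalings. The procedure was also run on simulated reads. These gave every entry the same spread beyond counting, so they do not show how the procedure does for members as variable as Magel2. Sequences and positions come from GENCODE M21. Named were all members, list genes past the FDR or with the lowest p (up to 4 a list), the 3 entries most like each abundant member, and the 2 neighbours of lowest p. The members, lists and alternatives were chosen with earlier results of these data known. Each library is a different mouse.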

Additional observations from a re-analysis of the deposited data

How the results depend on the processing

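No member was called under any of the 24 alternatives in any of the 4 comparisons (lowest FDR 0.255), while calls over all entries, in the alternatives that kept every library, ranged from 5 to 275 (75 as reported) for the subset labelled obese against AAV-GFP, 1 to 6 (2) for the subset labelled nonobese against AAV-GFP, 15 to 398 (128) between the subsets and 2 to 9 (3) for all AAV-Cre mice. Leaving out 1 mouse moved the share of entries called between 0.0594% and 5.27%, 0.00742% and 0.0223%, 0.0149% and 6.72%, and 0.00742% and 0.0297% in the same order. For the subset labelled obese against AAV-GFP and between the subsets, each of the 6 libraries compared moved the count by over 1.5 times. Of 864 refitted member differences 794 kept their sign and 70 did not, in values whose intervals spanned 0; the cause was not tested. For the subset labelled obese against AAV-GFP, Magel2 turned to -0.009 with library medians centred, -0.19 with both edgeR tests and -0.175 with DESeq2, Gm25449 to 0.018 and Gm38393 to 0.12 with neuronal genes as a covariate, and Gm38393 to 0.23 without both mice with high leukocyte genes. For the subset labelled nonobese, Snord64 turned to 0.037 (pseudocount 5), 0.18 (quantile normalization), and 0.22 in edgeR and DESeq2, and Gm25646 to 0.12 (quantile). Between the subsets, Ndn turned to 0.023 (medians), Snord64 to 0.10 (quantile), and Gm38393 to -0.035 (covariate) and -0.082 (without both mice). For all AAV-Cre mice, Snord64 turned to -0.12 (pseudocount 0.1) and -0.028 (medians), Gm25449 to 0.013 (quantile), 0.030 (covariate) and 0.069 (without both mice), and Magel2 to 0.015 (covariate) and 0.029 (without both mice).

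Leaving out each mouse gave ranges across 0. In the subset labelled obese against AAV-GFP they were Gm25156 -0.28 to 0.55, Gm25449 -0.54 to 0.22, Gm26337 -0.47 to 0.38, Gm38393 -0.20 to 0.038, Snord64 -0.40 to 0.56 and Magel2 -0.64 to 0.47. In the subset labelled nonobese they were Gm25646 -0.35 to 0.45, Gm25449 -0.33 to 0.45, Gm26337 -0.80 to 0.071, Snord64 -0.61 to 0.73, Ndn -0.002 to 0.14 and Magel2 -0.79 to 0.31. Between the subsets they were Gm25449 -0.077 to 0.56, Snord64 -0.73 to 0.60, Ndn -0.14 to 0.025 and Magel2 -0.32 to 0.062. For all AAV-Cre mice they were Gm25156 -0.029 to 0.80, Gm25646 -0.66 to 0.14, Gm25449 -0.43 to 0.33, Gm26337 -0.62 to 0.23, Gm38393 -0.017 to 0.12, Snord64 -0.24 to 0.36 and Magel2 -0.72 to 0.39. Ube3a kept a negative sign against AAV-GFP throughout. Of the related lists, 0 to 1 genes were called without a mouse: Gabra5, without labelled obese replicate 2, at -1.75 (FDR = 0.014, limma) in the subset labelled obese and 1.495 (FDR = 0.0366) between the subsets.

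With the replicate number as a block, 0 members were called. The numbers share no animals, and deviations of mice with the same number correlated at -0.02 to 0.09, so they do not pair the samples. At 2 to 71 reads a library, the low snoRNAs had intervals that reached past a 2-fold fall against AAV-GFP.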

Other observations

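Between Gm38393 and Ndn, the table holds 2 other entries, which belong to none of the lists. A230006K03Rik, 1.34 Mb from the cluster, averaged 136 ± 34.4 (signal ± SD, n = 3) in AAV-GFP, 138 ± 38.6 in the subset labelled obese and 145 ± 8.61 in the subset labelled nonobese, and Gm9801, 2.27 Mb away, had 3.47 ± 2.48, 3.46 ± 3.49 and 7.30 ± 4.68. Htr2c, the transcript that the Snord115-type stretch complements, had a signal of 8.23, 11.9 and 57.3 in AAV-GFP replicates 1, 2 and 3. Replicate 3 is the library lowest for Gm25156 and Magel2. Htr2c had 14.2 to 18.6 in the subset labelled obese and 20.4 to 32.6 in the subset labelled nonobese. It was looked up after its relation to these snoRNAs was seen, and no test was made. The signal ratio of Ndn to Magel2 was 6.31, 8.01 and 26.7 in AAV-GFP and 9.74 to 16.7 in the AAV-Cre libraries.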
